A study of Mus musculus with 9 samples.

Results

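The interferon response genes examined here are 53 mouse genes whose messenger RNA is known to be raised by interferons, taken from a list by gene name. Of the 53 listed genes, 52 had at least 1 gene probe on the array and Dtx3l had none under that rule. The array's own name Ifi27 also covers probes whose accession belongs to Ifi27l2a, so that gene was kept as a further member, which gave 53 genes with 82 probes. Oas1g was not well above background on any of the 9 arrays. The other 52 genes were tested, out of 16740 genes or unnamed features in all. Each of these members passed the filter on dim probes through at least 1 group of 3 arrays.

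RNA came from 3T3-L1, mouse fibroblasts kept as a line, able to become adipocytes and described in the labels as preadipocytes. The X-3 group received 70 µM X-3 for 24 h, the X-1 group received 70 µM X-1 for 24 h, and the control group was untreated, with 3 arrays in each group. All 3 groups had been grown in medium with 10% fetal bovine serum and then kept without serum for 48 h. X-3 and X-1 are named only as derivatives of mangiferin, a plant polyphenol, no structure is given for either code, and the labels name no vehicle for the controls. The values therefore describe 1 cell line at 1 dose and 1 time.

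Interferons are secreted proteins that bind receptors made of pairs of chains, such as IFNAR1 with IFNAR2 for type I interferons and IFNGR1 with IFNGR2 for interferon gamma. JAK kinases on these chains phosphorylate STAT proteins, which bind interferon-stimulated response elements together with IRF9 or, as dimers, gamma-activated sites. The induced genes encode nucleic acid sensors, enzymes that block or degrade viral RNA, ubiquitin-like modifiers, GTPases that act on pathogen-containing vacuoles, and parts of the machinery that loads peptides on class I molecules. Preadipocytes and other fibroblasts carry the receptors and can produce interferon beta themselves.

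The software called 57.9% to 67.1% of gene spots well above background on the 9 arrays. With 3 arrays a group, the array number sets how precise a value can be. Arrays with the same replicate number shared a slide. Slides 2 and 3 were scanned on 1 day and slide 1 on a different day. Each group kept 1 position on every slide, and effects of position and of group cannot be told apart. X-3 replicate 1 stood apart on the second principal component, at 72.4 against −20.6 and −18.0 for the other X-3 arrays and −15.3 to 10.1 for the X-1 and control arrays. Results that rest on it are given with and without it. Of 10 preadipocyte or fibroblast markers, 10 were measured. Their summed level ran from 1524 to 1642 times the array's 75th percentile with X-3, 1512 to 1841 with X-1 and 1511 to 1811 in controls. The brightest markers carry that sum. By limma 2 of the 10 were higher and 4 lower with each compound, at an adjusted p under 0.05. On the log2 scale Pdgfrb stood at 4.99, 4.48 and 4.42 with X-3, 4.34, 4.46 and 4.45 with X-1 and 6.06, 5.79 and 5.68 in controls. Cd34 stood at −0.63, −0.73 and −0.82 with X-3, −1.82, −1.84 and −1.61 with X-1 and −2.09, −2.35 and −2.26 in controls. Of 10 adipocyte markers only Fabp4, Pparg and Cebpa were measured, and Cfd and Lep were above background on 0 arrays. Their summed levels were 3.79 to 5.69 with X-3, 3.9 to 4.2 with X-1 and 5.6 to 6.43 in controls. Of 10 leukocyte markers 7 were measured, with summed levels of 4.4 to 5.13 with X-3, 3.78 to 4.47 with X-1 and 3.9 to 4.2 in controls. Adgre1 and Itgam were above background on 0 arrays, and Ptprc on 1 X-3 array only. Csf1r, Cd14 and Cd68 of that list rose with both compounds while Lyz2 and Aif1 fell, and their part in the results below was not tested. In RNA from a whole culture, fewer cells of a type and less RNA per cell cannot be told apart.

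Promoter sequence was set beside the members because the 2 binding elements named above can be searched for directly. RefSeq promoter windows, 250 bases before to 50 bases after each transcript start on build GRCm38.p6, were matched for 40 members, with 47 windows. The core of the interferon-stimulated response element was searched on both strands as GAAA, any 2 bases and GAAA again, and it was present in 20 of the 47 member windows (42.55%), against 3.44% of all 32851 windows. The gamma-activated site, searched as TTCNNNGAA on both strands, was present in 23.4% of member windows and 8.3% of all windows. Among members that rose with X-1, 17 of 32 windows held the response element core, and among tested members that did not, 2 of 13 did. A match is a description of these letters and does not show that a factor binds there.

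The window of Rsad2, the member with the highest log2 difference, is printed up to the transcript start, 250 bases in the direction of the gene, with the matched core in capitals. The core starts 120 bases before the transcript start, and the printed bases lie at chr12:26456453-26456702 (-).
Rsad2: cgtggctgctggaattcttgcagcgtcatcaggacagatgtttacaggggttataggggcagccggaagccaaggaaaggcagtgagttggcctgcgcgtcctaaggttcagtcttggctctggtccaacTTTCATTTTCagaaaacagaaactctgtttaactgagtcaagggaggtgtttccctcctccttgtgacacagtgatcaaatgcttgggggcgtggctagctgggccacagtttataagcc

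For 8 further members that the results return to, a stretch of 60 bases around the match is shown in the direction of the gene, with every matched base in capitals. Overlapping matches run together. The stretches lie at chr5:120907506-120907565 (-) for Oas1a, chr3:142620584-142620643 (+) for Gbp2, chr4:156200857-156200916 (-) for Isg15, chr19:34640765-34640824 (+) for Ifit1, chr11:48871411-48871470 (-) for Irgm1, chr1:174031850-174031909 (-) for Ifi205, chr10:128270256-128270315 (+) for Stat2 and chr11:58199502-58199561 (+) for Igtp. Isg15 held 3 overlapping matches, Oas1a and Irgm1 held 2 overlapping ones, Ifit1 and Ifi205 held 2 apart from each other, and Gbp2, Stat2 and Igtp held 1 in the window.
Oas1a: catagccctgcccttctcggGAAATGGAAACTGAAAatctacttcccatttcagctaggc
Gbp2: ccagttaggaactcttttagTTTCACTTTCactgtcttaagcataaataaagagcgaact
Isg15: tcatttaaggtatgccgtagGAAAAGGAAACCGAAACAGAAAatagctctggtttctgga
Ifit1: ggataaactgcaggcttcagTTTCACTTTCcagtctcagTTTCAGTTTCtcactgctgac
Irgm1: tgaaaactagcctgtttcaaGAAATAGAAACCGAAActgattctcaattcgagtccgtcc
Ifi205: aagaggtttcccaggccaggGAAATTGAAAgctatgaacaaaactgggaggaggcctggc
Stat2: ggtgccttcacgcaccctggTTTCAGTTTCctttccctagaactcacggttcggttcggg
Igtp: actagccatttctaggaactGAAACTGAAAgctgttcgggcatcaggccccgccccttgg

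Ifi202b is shown for contrast, since it was the member that fell most. Its window held no match to the response element core and 1 to the gamma-activated site, which is not marked. The 250 bases before its transcript start lie at chr1:173982845-173983094 (-). A missing core was not confined to members that fell. Cmpk2, Ifi44 and Ifi47 rose with both compounds, and their windows held no match to it either. A window of Ifi203, which fell with X-3 at its brightest probe, held 1 match.
Ifi202b: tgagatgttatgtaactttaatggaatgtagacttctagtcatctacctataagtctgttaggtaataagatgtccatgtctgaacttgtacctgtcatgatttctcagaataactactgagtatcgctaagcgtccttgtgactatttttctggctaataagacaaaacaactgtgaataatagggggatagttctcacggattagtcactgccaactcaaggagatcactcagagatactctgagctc

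Most members rose with each compound. With X-3, 36 of 52 members rose and 5 fell at an adjusted p under 0.05, where 28.9% of all genes rose and 26.4% fell. With X-1, 41 rose and 3 fell, where 28.0% of all genes rose and 28.2% fell. The 41 include Oasl1, which passed the filter on dim probes only through X-1, the group where it was highest. Both comparisons use the same 3 control arrays. Scaling on spike-in RNA, which slides 2 and 3 carried, moved the median of all genes to −0.65 with X-3 and −0.84 with X-1, with 15 members higher and 8 lower with X-3, and 21 higher and 9 lower with X-1. The members' median on that scale was 0.23 with X-3 and 0.45 with X-1, so it stayed above that of all genes. On that scale the estimate of 10 members with X-3 and 11 with X-1 turned below 0. A further 17 with X-3, at 0.022 to 0.648, and 14 with X-1, at 0.073 to 0.546, kept their direction and lost the call. Those were Mx1, Mx2, Ifitm3, Eif2ak2, Dhx58, Usp18, Trim25, Parp14, Ifi35 and Irgm1 with both compounds, Ifit3, Cmpk2, Rtp4, Ifih1, Gbp3, Igtp and Tap1 with X-3, and Bst2, Ddx58, Stat2 and Ifi204 with X-1. The median log2 difference of the members was 0.98 with X-3 and 1.40 with X-1, against 0.05 and 0.06 over all genes. At least 2-fold rises that passed the test were found for 26 members with X-3, against 14.3% of all genes, and for 36 members with X-1, against 15.2% of all genes.

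The members' median lay above control on every slide. It was 1.13, 0.82 and 1.04 above control on slides 1, 2 and 3 with X-3, and 1.44, 1.11 and 1.65 with X-1. All 3 treated arrays lay above all 3 control arrays for 36 members with X-3, where 32.7% of all genes did so, and for 40 members with X-1, where 34.7% did so. All lay below for 5 members with X-3 and 5 with X-1, where 29.2% and 33.8% of all genes did so. Of the 52 members, 34 rose with both compounds, 7 passed the test upward with X-1 and not with X-3, and 2 passed it upward with X-3 and not with X-1, namely Tap1 and Ifitm1. Without X-3 replicate 1, 41 members rose with X-3, where 31.8% of all genes did so. The 5 gained were Bst2, Ddx58, Irf7, Stat2 and Isg15, and Bst2, Ddx58 and Isg15 lay more than 1 log2 unit lower on that array than on either other X-3 array.

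**Figure D1:**
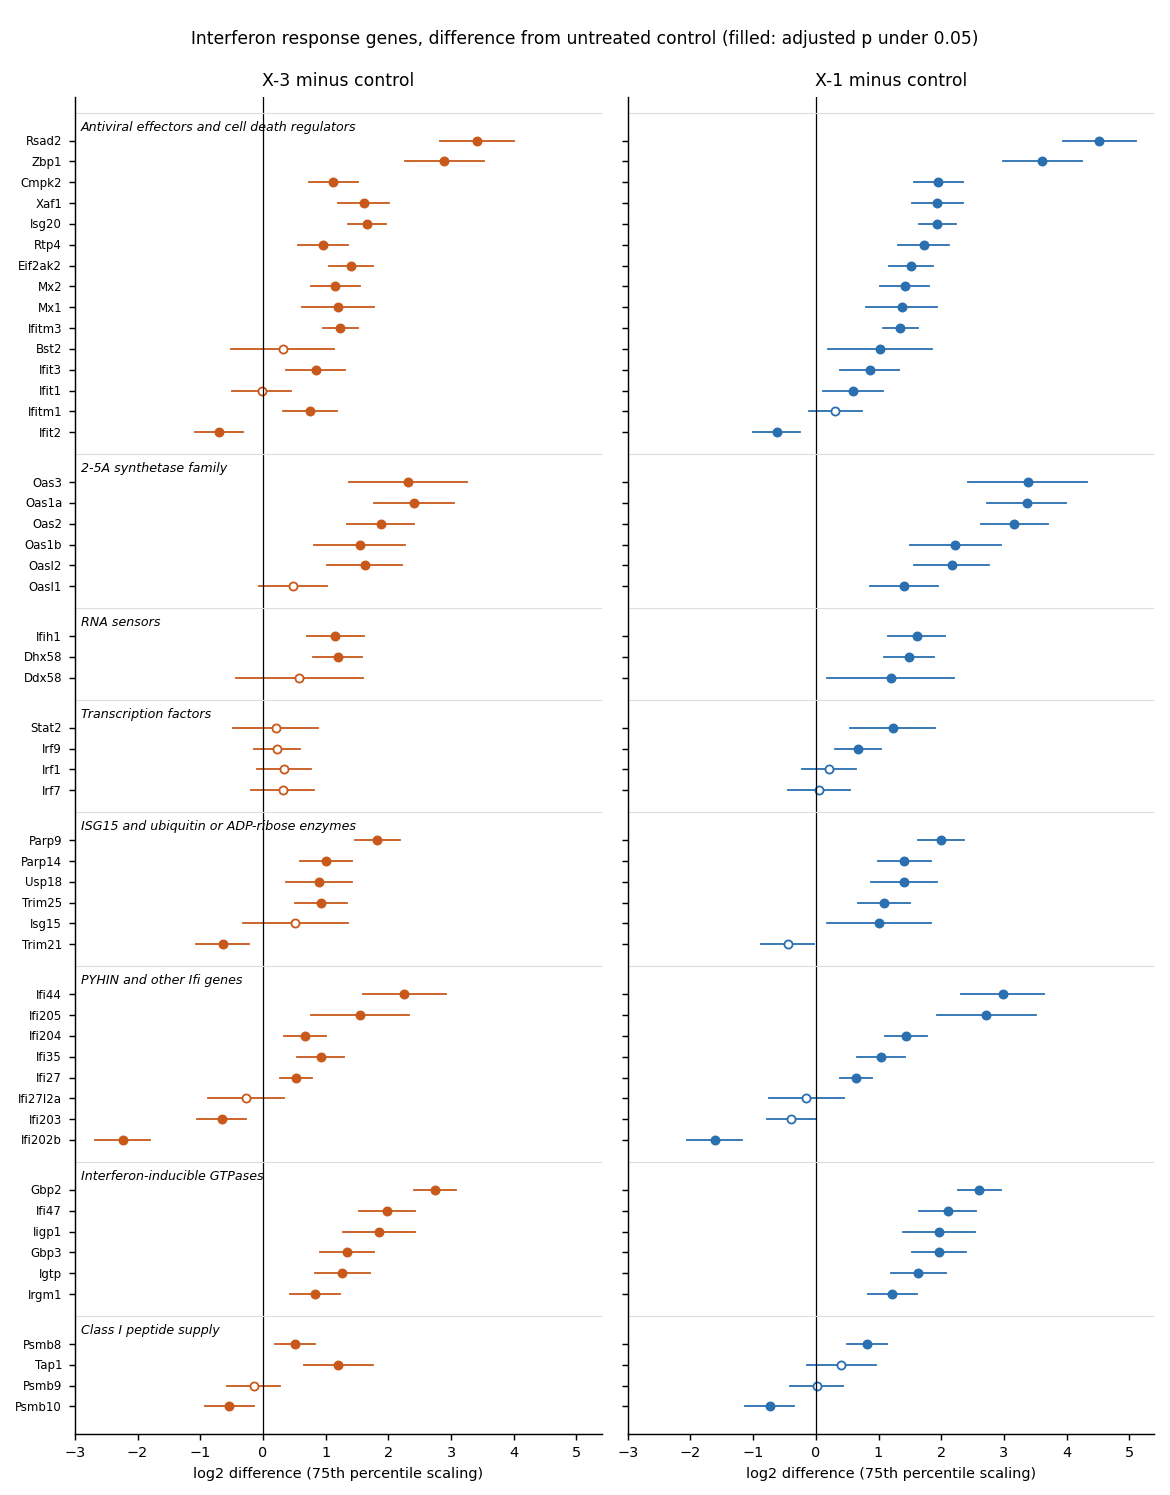
Log2 difference of each of the 52 tested members from control, X-3 on the left and X-1 on the right, grouped by role. Points are fitted differences of 3 arrays against 3, bars are 95% confidence intervals, and filled points passed an adjusted p of 0.05; most points lie right of 0 in both panels, from −2.24 to 3.42 with X-3 and −1.61 to 4.52 with X-1.

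The antiviral effectors and cell death regulators formed the longest role group. With X-3, 12 of 15 were higher and 1 lower, and with X-1, 13 were higher and 1 lower. Among all genes 28.9% rose and 26.4% fell with X-3, and 28.0% rose and 28.2% fell with X-1. Rsad2 encodes viperin, an enzyme of the endoplasmic reticulum that makes a chain-terminating nucleotide. Levels here are log2 intensity minus the 75th percentile of the same array, in the order of replicates 1, 2 and 3. Rsad2 stood at 2.19, 1.96 and 1.75 with X-3, 3.08, 3.09 and 3.06 with X-1 and −2.0, −0.84 and −1.5 in controls. The 3 groups did not overlap, and the X-1 arrays were the highest and lay within 0.03 of each other. Rsad2 rose by 3.42 ± 0.26 (adjusted p = 8.08e-06) with X-3 and by 4.52 ± 0.26 (adjusted p = 1.39e-06) with X-1, in log2 units with standard errors and limma adjusted p-values. Its 3 probes gave 3.42, 3.48 and 3.55 with X-3 and 4.52, 4.5 and 4.59 with X-1.

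Zbp1, a sensor of Z-form nucleic acid that can start necroptosis, had the next highest difference of the group. Its levels were 1.17, 0.77 and 0.09 with X-3, 1.72, 1.09 and 1.38 with X-1 and −2.06, −2.10 and −2.50 in controls. Each treated array was more than 2 log2 units above each control array. Zbp1 rose by 2.89 ± 0.28 (adjusted p = 3.27e-05) with X-3 and 3.61 ± 0.28 (adjusted p = 7.15e-06) with X-1. Isg20, an exonuclease that degrades RNA, rose by 1.66 ± 0.13 with X-3 and 1.94 ± 0.13 with X-1. Xaf1, a partner of the apoptosis inhibitor XIAP, rose by 1.61 ± 0.18 with X-3 and 1.94 ± 0.18 with X-1. Eif2ak2, the kinase PKR that stops translation when it meets double-stranded RNA, rose by 1.41 ± 0.16 with X-3 and 1.51 ± 0.16 with X-1. The dynamin-like GTPases Mx1 and Mx2, which trap viral ribonucleoproteins, rose by 1.20 ± 0.25 and 1.15 ± 0.17 with X-3 and by 1.37 ± 0.25 and 1.42 ± 0.17 with X-1.

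The Ifit genes, which encode proteins that bind foreign RNA, did not move as 1 block. Ifit3 rose by 0.84 ± 0.21 (adjusted p = 0.00769) with X-3 and 0.86 ± 0.21 (adjusted p = 0.0064) with X-1, where spike-in scaling gave −0.07. Ifit1, whose promoter stretch above holds 2 separate cores, stood at 3.16, 3.23 and 2.83 with X-3, 3.80, 3.47 and 3.80 with X-1 and 2.95, 3.53 and 2.81 in controls. The control array of slide 2 was brighter than every X-3 array, and the groups overlapped in both comparisons. Ifit1 differed by −0.02 ± 0.21 (adjusted p = 0.936) with X-3 and rose by 0.59 ± 0.21 (adjusted p = 0.0364) with X-1, a call lost on leaving out X-1 replicate 1 or 3, or control replicate 1 or 3 (adjusted p = 0.1 to 0.131) and turned to −0.43 with spike-in scaling. Ifit2 was the only member of this role group called lower. It stood at −0.78, −0.91 and −0.87 with X-3, −0.80, −1.08 and −0.45 with X-1 and −0.32, −0.04 and −0.09 in controls, with every treated array below every control array. Ifit2 fell by 0.70 ± 0.17 with X-3 (adjusted p = 0.00651) and by 0.63 ± 0.17 with X-1 (adjusted p = 0.011). A single mean over its probes ended both calls (adjusted p = 0.0724 and 0.179).

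Membrane proteins of the group were mixed. Ifitm3, which hinders fusion of viruses with endosomes, rose by 1.24 ± 0.13 (adjusted p = 4.35e-05) with X-3 and 1.35 ± 0.13 (adjusted p = 2.15e-05) with X-1. Ifitm1, its relative at the cell surface, rose by 0.75 ± 0.19 (adjusted p = 0.00809) with X-3 and differed by 0.31 ± 0.19 (adjusted p = 0.19) with X-1, while spike-in scaling gave −0.03 and −0.72. Bst2, or tetherin, which holds budding virions at the cell surface, stood at 4.30, 5.95 and 5.48 with X-3, 5.74, 5.90 and 6.23 with X-1 and 4.72, 5.11 and 4.97 in controls. X-3 replicate 1 was below all controls and the other 2 X-3 arrays were above all of them. The Bst2 difference was 0.31 ± 0.36 (adjusted p = 0.491) with X-3, and 0.78 (adjusted p = 0.0101) without that array. It was 1.03 ± 0.36 (adjusted p = 0.0378) with X-1, a call lost on leaving out X-1 replicate 1, 2 or 3, or control replicate 1, 2 or 3 (adjusted p = 0.0569 to 0.113).

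**Figure D2:**
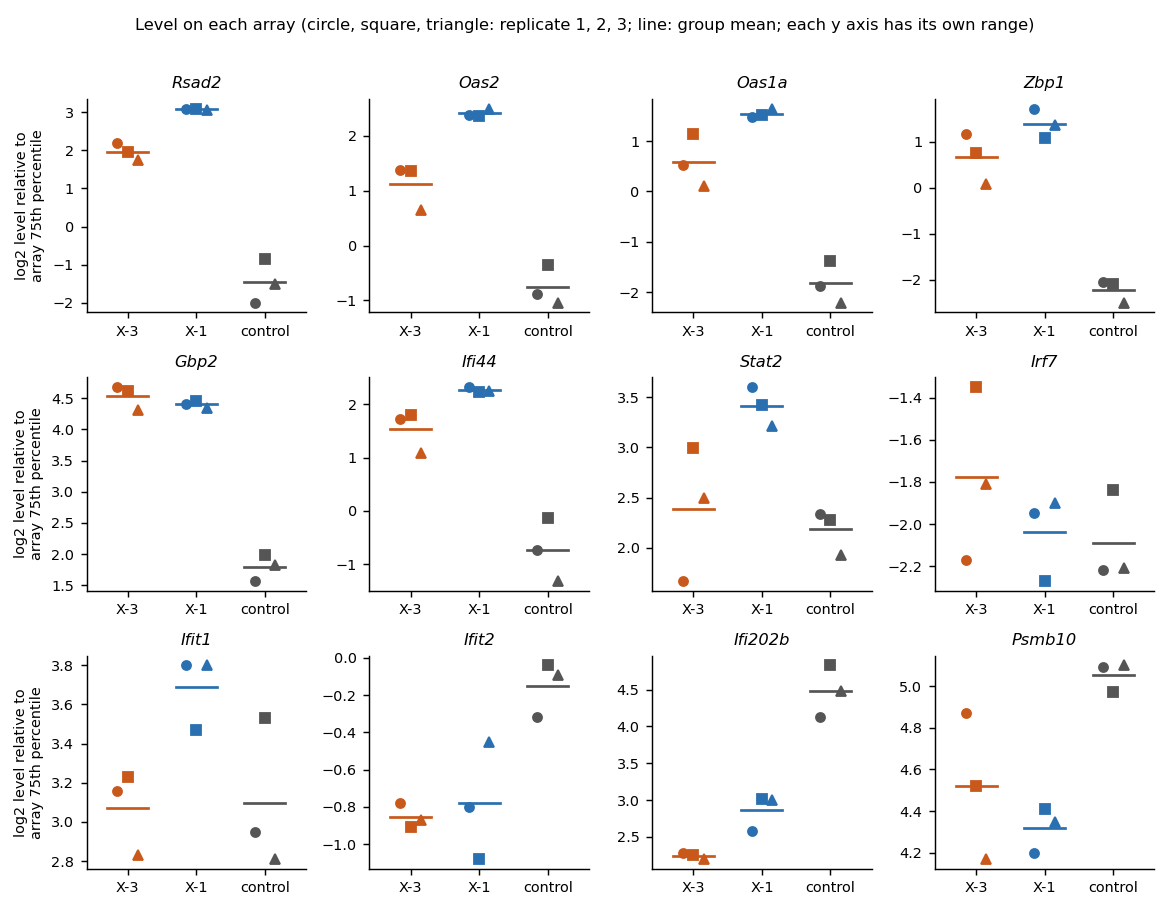
Log2 level of 12 members on each array, relative to the array's 75th percentile, with X-3, X-1 and control from left to right and a line at each group mean. Rsad2, Oas2, Oas1a, Zbp1, Gbp2 and Ifi44 lie higher on all 6 treated arrays than on any control array, while Ifit2, Ifi202b and Psmb10 lie lower on all 6.

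All measured members of the 2-5A synthetase family rose with X-1, 6 of 6, and 5 of 6 rose with X-3. Of all genes 28.0% rose with X-1 and 28.9% with X-3. The 6 calls with X-1 include Oasl1, which passed the filter on dim probes only through X-1, the group where it was highest. The calls of this family held with spike-in scaling. Normexp background ended the call of Oas3 with X-3 (0.54, adjusted p = 0.0702) and that of Oasl1 with X-1 (0.21, adjusted p = 0.423). Active enzymes of this family make short 2-5A chains when they meet double-stranded RNA, and the activity of the members was not measured here. Oas1a stood at 0.52, 1.14 and 0.10 with X-3, 1.48, 1.52 and 1.64 with X-1 and −1.87, −1.38 and −2.21 in controls. The 3 groups did not overlap. Oas1a rose by 2.41 ± 0.28 (adjusted p = 9.74e-05) with X-3 and 3.37 ± 0.28 (adjusted p = 1.06e-05) with X-1. Oas3 had levels of −4.45, −4.08 and −4.76 with X-3, −3.08, −3.68 and −3.33 with X-1 and −5.89, −6.57 and −7.76 in controls. These are dim, and only 1 of 3 control arrays was above background. Oas3 rose by 2.31 ± 0.42 (adjusted p = 0.0014) with X-3 and 3.38 ± 0.42 (adjusted p = 0.000124) with X-1.

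Oas1b and Oasl2 also rose, by 1.54 ± 0.32 and 1.62 ± 0.27 with X-3 and by 2.23 ± 0.32 and 2.17 ± 0.27 with X-1. Oasl1, whose mouse protein limits translation of Irf7, stood at −5.90, −5.92 and −6.14 with X-3, −4.97, −5.03 and −5.20 with X-1 and −5.98, −6.38 and −7.04 in controls. It was above background on 1 X-3 array, 3 X-1 arrays and 0 control arrays, so its tests are not independent of the filter on dim probes. The fitted difference of Oasl1 with X-1 was 1.40 ± 0.24, or 2.65-fold (limma adjusted p = 0.000919), which is not a lower limit. With normexp background it was 0.21 (adjusted p = 0.423). For a lower limit, each control array would take the higher of the dimmest signal that counted as above background and the probe's own signal. The probe's own signal was the higher on all 3 control arrays, so no limit apart from the fitted fold could be set. With X-3 the fitted difference was 0.48 ± 0.24 (adjusted p = 0.12), and 0.72 (adjusted p = 0.02) without control replicate 1. Paralogs of the Oas, Ifit, Gbp and Ifi20x families are closely related, and cross-hybridisation of their probes was not tested.

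Of the RNA sensors of the RIG-I family, RIG-I and MDA5 start interferon production when they meet viral RNA in the cytosol. Ifih1, or MDA5, stood at 0.01, −0.09 and −0.33 with X-3, 0.14, 0.24 and 0.57 with X-1 and −1.59, −0.90 and −1.38 in controls, and the treated arrays did not overlap the controls. Ifih1 rose by 1.15 ± 0.20 (adjusted p = 0.00109) with X-3 and 1.61 ± 0.20 (adjusted p = 0.000128) with X-1. The X-3 call ended with the mean of its probes, at 0.97 (adjusted p = 0.0513), and with spike-in scaling, at 0.23 (adjusted p = 0.516). Dhx58, or LGP2, stood at 1.95, 2.03 and 1.74 with X-3, 2.32, 2.12 and 2.18 with X-1 and 0.71, 1.05 and 0.39 in controls, again without overlap. Dhx58 rose by 1.19 ± 0.18 (adjusted p = 0.000417) with X-3 and 1.49 ± 0.18 (adjusted p = 9.05e-05) with X-1. Its other probe was above background on 0 treated arrays and 3 control arrays, at −2.48 with X-3 and −0.84 with X-1, and the mean of both probes gave −0.65 with X-3 and 0.32 (adjusted p = 0.306) with X-1, which ended both calls.

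Ddx58, which encodes RIG-I itself, was the least settled of the 3 sensors. It stood at 0.57, 2.37 and 1.73 with X-3, 2.80, 1.72 and 2.01 with X-1 and 1.41, 0.79 and 0.74 in controls. X-3 replicate 1 was the lowest of all 9 arrays. The difference was 0.58 ± 0.45 (adjusted p = 0.301) with X-3, and 1.07 (adjusted p = 0.0276) without X-3 replicate 1. It was 1.20 ± 0.45 (adjusted p = 0.0464) with X-1, a call lost on leaving out X-3 replicate 3, X-1 replicate 1 or 3, or control replicate 2 or 3 (adjusted p = 0.0607 to 0.158) and with the replicate number as a block (adjusted p = 0.0739). The 4 Ddx58 probes ranged from −0.37 to 1.21 with X-3 and from −0.15 to 1.46 with X-1.

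Among the transcription factors of the response, none of 4 was called with X-3, where 28.9% of all genes rose and 26.4% fell. With X-1, 2 of 4 rose, where 28.0% of all genes did. With X-3 all 4 estimates were above 0, from 0.20 to 0.34, and with spike-in scaling Stat2 −0.06, Irf9 −0.32, Irf7 −0.25 and Irf1 −0.50. Stat2, a subunit of the complex that binds the response element, stood at 1.67, 2.99 and 2.50 with X-3, 3.60, 3.42 and 3.21 with X-1 and 2.34, 2.28 and 1.93 in controls. X-3 replicate 1 was the lowest of all 9 arrays, while the other X-3 arrays lay above all controls. Stat2 rose by 1.22 ± 0.30 (adjusted p = 0.00665) with X-1 and differed by 0.20 ± 0.30 (adjusted p = 0.584) with X-3, or 0.56 (adjusted p = 0.0352) without X-3 replicate 1. With spike-in scaling the X-1 difference of Stat2 was 0.31 (adjusted p = 0.355). Irf9, the DNA-binding subunit of that complex, stood at 2.65, 3.1 and 2.92 with X-3, 3.48, 3.33 and 3.21 with X-1 and 2.76, 2.81 and 2.43 in controls. Irf9 rose by 0.67 ± 0.16 (adjusted p = 0.0063) with X-1, where spike-in scaling gave −0.25, and differed by 0.22 ± 0.16 (adjusted p = 0.279) with X-3.

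Irf7, which drives transcription of the interferon alpha genes, stood at −2.17, −1.35 and −1.81 with X-3, −1.95, −2.27 and −1.90 with X-1 and −2.22, −1.84 and −2.21 in controls, and its groups overlapped in both comparisons. Its difference was 0.31 ± 0.22 (adjusted p = 0.253) with X-3 and 0.05 ± 0.22 (adjusted p = 0.87) with X-1. Without X-3 replicate 1 the X-3 difference was 0.51 (adjusted p = 0.0477). Irf1, an early factor of the interferon gamma response, was bright, at 5.71, 5.05 and 5.02 with X-3, 5.13, 5.19 and 5.08 with X-1 and 5.09, 4.82 and 4.85 in controls. Its difference was 0.34 ± 0.19 (adjusted p = 0.158) with X-3 and 0.22 ± 0.19 (adjusted p = 0.359) with X-1. At its other, dimmer probe the differences were 0.70 and 0.15. With the mean of both probes Irf1 was called higher with X-3, at 0.52 (adjusted p = 0.00392). The 95% confidence intervals of the log2 difference were −0.45 to 0.54 for Irf7 and −0.22 to 0.65 for Irf1 with X-1, so rises above 0.65 on the log2 scale lay outside both.

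Enzymes of ISG15, ubiquitin and ADP-ribose modification mostly rose, 4 of 6 with 1 lower with X-3 and 5 of 6 with X-1. Of all genes 28.9% rose and 26.4% fell with X-3, and 28.0% rose with X-1. Parp9, which acts with the ubiquitin ligase encoded by Dtx3l, stood at 2.63, 2.38 and 2.02 with X-3, 2.59, 2.41 and 2.57 with X-1 and 0.54, 0.58 and 0.44 in controls. No treated array overlapped a control array. Parp9 rose by 1.83 ± 0.16 (adjusted p = 1.94e-05) with X-3 and 2.0 ± 0.16 (adjusted p = 9.05e-06) with X-1. Parp14, an ADP-ribosyl transferase, stood at 4.42, 4.14 and 3.86 with X-3, 4.70, 4.47 and 4.45 with X-1 and 3.23, 3.32 and 2.83 in controls and rose by 1.01 ± 0.19 (adjusted p = 0.00154) with X-3 and 1.41 ± 0.19 (adjusted p = 0.00018) with X-1.

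Isg15 encodes the ubiquitin-like protein that is coupled to new proteins during the response. It stood at 1.19, 2.80 and 2.40 with X-3, 2.64, 2.45 and 2.77 with X-1 and 1.37, 2.0 and 1.46 in controls. X-3 replicate 1 was the lowest array of all and the other X-3 arrays exceeded every control. Isg15 differed by 0.51 ± 0.37 (adjusted p = 0.265) with X-3, and by 0.98 (adjusted p = 0.0043) without that array. It rose by 1.01 ± 0.37 (adjusted p = 0.0428) with X-1, a call lost on leaving out X-3 replicate 3, X-1 replicate 1, 2 or 3, or control replicate 1 or 3 (adjusted p = 0.0525 to 0.117) and at −0.02 with spike-in scaling. Usp18, which removes ISG15 from proteins and damps the receptor, rose by 0.89 ± 0.23 (adjusted p = 0.00971) with X-3 and 1.40 ± 0.23 (adjusted p = 0.000745) with X-1.

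Of the ubiquitin ligases, Trim25, which acts on RIG-I, rose by 0.93 ± 0.18 with X-3 and 1.09 ± 0.18 with X-1. At its other probe the differences were 1.99 and 2.67. With spike-in scaling Trim25 was at 0.14 (adjusted p = 0.708) with X-3 and 0.07 (adjusted p = 0.834) with X-1. Trim21, an antibody-binding ligase of the cytosol, stood at 0.53, 0.14 and −0.21 with X-3, 0.45, 0.16 and 0.41 with X-1 and 0.91, 0.77 and 0.70 in controls, with every treated array below every control array. Trim21 fell by 0.64 ± 0.19 with X-3 (adjusted p = 0.017), a call lost on leaving out X-3 replicate 3, or control replicate 1 (adjusted p = 0.0532 to 0.0563). Its difference with X-1 was −0.45 ± 0.19 (adjusted p = 0.0672), and it passed the test with the replicate number as a block (adjusted p = 0.0439). Its promoter window held 2 overlapping response element cores, both after the transcript start.

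The PYHIN genes, whose proteins bind DNA, went in opposite directions. Ifi205 was dim and stood at −4.11, −2.85 and −3.02 with X-3, −2.16, −2.34 and −1.98 with X-1 and −5.27, −4.33 and −5.03 in controls. Every treated array lay above every control array, and X-3 replicate 1 was the lowest of the treated arrays. Ifi205 rose by 1.55 ± 0.35 (adjusted p = 0.00465) with X-3 and 2.72 ± 0.35 (adjusted p = 0.000156) with X-1. With normexp background the X-3 difference was 0.52 (adjusted p = 0.096). Ifi204 stood at 4.34, 4.12 and 3.86 with X-3, 4.83, 4.82 and 4.93 with X-1 and 3.37, 3.59 and 3.32 in controls and rose by 0.68 ± 0.15 (adjusted p = 0.00396) with X-3, where spike-in scaling gave −0.17, and 1.43 ± 0.15 (adjusted p = 3.98e-05) with X-1. Ifi202b, a mouse protein with no known counterpart in humans, stood at 2.28, 2.25 and 2.20 with X-3, 2.58, 3.01 and 3.00 with X-1 and 4.13, 4.83 and 4.48 in controls. The 3 groups did not overlap, and the X-3 arrays were the lowest. Ifi202b fell by 2.24 ± 0.19 with X-3 (adjusted p = 1.66e-05) and by 1.61 ± 0.19 with X-1 (adjusted p = 9.77e-05), which is 4.72-fold and 3.06-fold lower than in controls.

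Ifi203 gave a direction that depended on the probe. Its brightest probe stood at 0.82, 0.78 and 0.65 with X-3, 0.90, 1.12 and 1.04 with X-1 and 1.14, 1.79 and 1.30 in controls. At that probe, which the array design places at chr1:175850608-175850667 on build mm9, Ifi203 fell by 0.66 ± 0.17 with X-3 (adjusted p = 0.0103) and differed by −0.39 ± 0.17 (adjusted p = 0.0806) with X-1. Without control replicate 1 the X-1 difference was −0.53 (adjusted p = 0.0316). The probe at chr1:175863777-175863836 gave 1.04 with X-3 and 1.67 with X-1. The probe at chr1:175867268-175867327 gave 0.96 and 1.70. The mean of the 3 probes was 0.45 with X-3 and 0.99 with X-1. The probes share the gene's name, and which exons they cover was not analysed here.

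Other genes named for induction by interferon mostly rose. Ifi44, a cytosolic protein of unsettled function, stood at 1.73, 1.80 and 1.08 with X-3, 2.32, 2.22 and 2.24 with X-1 and −0.73, −0.14 and −1.31 in controls, with no overlap between treated and control arrays. Ifi44 rose by 2.26 ± 0.29 (adjusted p = 0.000188) with X-3 and 2.98 ± 0.29 (adjusted p = 2.86e-05) with X-1. Ifi35 rose by 0.92 ± 0.17 with X-3 and 1.04 ± 0.17 with X-1, and Ifi27 by 0.52 ± 0.11 and 0.64 ± 0.11, where spike-in scaling gave −0.22 and −0.20. A second Ifi27 probe gave −0.26 and −0.10. Ifi27l2a, one of the brighter members at 4.22 to 5.32 on all arrays, differed by −0.27 ± 0.27 (adjusted p = 0.411) with X-3 and −0.15 ± 0.27 (adjusted p = 0.652) with X-1.

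All 6 interferon-inducible GTPases rose with both compounds, where 28.9% of all genes rose with X-3 and 28.0% with X-1. These proteins coat and break pathogen-containing vacuoles. Gbp2 stood at 4.68, 4.61 and 4.32 with X-3, 4.41, 4.46 and 4.34 with X-1 and 1.57, 1.99 and 1.82 in controls. The treated arrays lay more than 2 log2 units above the controls, and the X-3 and X-1 arrays overlapped. Gbp2 rose by 2.74 ± 0.15 (adjusted p = 1.58e-06) with X-3 and 2.61 ± 0.15 (adjusted p = 1.38e-06) with X-1. Ifi47 stood at 1.30, 1.06 and 0.89 with X-3, 1.27, 1.14 and 1.22 with X-1 and −1.17, −0.44 and −1.07 in controls and rose by 1.98 ± 0.20 (adjusted p = 4.31e-05) with X-3 and 2.10 ± 0.20 (adjusted p = 2.46e-05) with X-1. The remaining members, Gbp3, Igtp, Irgm1 and Iigp1, rose by 0.83 to 1.86 with X-3 and 1.22 to 1.97 with X-1. With spike-in scaling all 6 estimates stayed above 0, down to 0.02 with X-3 and 0.31 with X-1 for Irgm1, and 3 of 6 passed the test with X-3 and 5 of 6 with X-1. The stretches of Gbp2 and Irgm1 printed above both hold the response element core within 60 bases before the transcript start.

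The genes that supply peptides to class I molecules were divided. Psmb8, a catalytic subunit of the immunoproteasome, stood at 2.16, 2.34 and 1.84 with X-3, 2.35, 2.49 and 2.40 with X-1 and 1.61, 1.64 and 1.56 in controls, with all treated arrays above all controls. Psmb8 rose by 0.51 ± 0.14 (adjusted p = 0.013) with X-3, a call lost on leaving out X-3 replicate 2 (adjusted p = 0.0511), and by 0.81 ± 0.14 (adjusted p = 0.000999) with X-1. With spike-in scaling the Psmb8 differences were −0.21 with X-3 and −0.05 with X-1. Psmb10, another catalytic subunit, stood at 4.87, 4.52 and 4.17 with X-3, 4.20, 4.41 and 4.35 with X-1 and 5.09, 4.97 and 5.10 in controls, with all treated arrays below all controls. Psmb10 fell by 0.54 ± 0.17 with X-3 (adjusted p = 0.0263), a call lost on leaving out X-3 replicate 2 or 3, or control replicate 1 or 3 (adjusted p = 0.0617 to 0.0861). It fell by 0.74 ± 0.17 with X-1 (adjusted p = 0.00557). Psmb9, which shares a promoter region with Tap1, differed by −0.15 ± 0.19 (adjusted p = 0.52) with X-3 and 0.01 ± 0.19 (adjusted p = 0.958) with X-1. Tap1, a chain of the peptide transporter, rose by 1.20 ± 0.24 (adjusted p = 0.00271) with X-3 and differed by 0.41 ± 0.24 (adjusted p = 0.185) with X-1.

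The 2 compounds were then compared directly, at the same dose and time, as 1 pair. Of 52 members, 0 were called higher and 6 lower with X-3 than with X-1 by limma, where 6.97% of all genes were higher and 3.57% lower. The median difference of the members was −0.35, against 0.01 over all genes, and 46 of 52 members had an estimate below 0. Above 0 were 6 members and 8559 of all 16740 genes. By slide the members' median was −0.26, −0.15 and −0.58. All 3 X-3 arrays lay below all 3 X-1 arrays for 26 members, where 11.8% of all genes did so, and above them for 1 member, where 19.0% did so. For 46 members the difference did not pass the test, which does not show that the compounds acted alike on them.

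The 6 members called lower with X-3 than with X-1 were Oas2, Rsad2, Oasl1, Cmpk2, Rtp4 and Ifi204. Oas2 stood at 1.37, 1.35 and 0.64 with X-3, 2.38, 2.37 and 2.49 with X-1 and −0.88, −0.35 and −1.04 in controls, and the 3 groups did not overlap. Oas2 was lower with X-3 than with X-1 by 1.29 ± 0.24 on the log2 scale (adjusted p = 0.013), and above control with both, by 1.88 ± 0.24 (adjusted p = 0.000157) with X-3 and 3.17 ± 0.24 (adjusted p = 5.65e-06) with X-1. Cmpk2, a mitochondrial nucleotide kinase whose gene neighbours Rsad2, stood at 0.83, 0.60 and 0.37 with X-3, 1.5, 1.36 and 1.43 with X-1 and −0.69, −0.20 and −0.68 in controls. The X-3 arrays lay between the other groups without overlap. Rtp4, a chaperone of receptors with antiviral activity, stood at 4.85, 4.76 and 4.5 with X-3, 5.34, 5.5 and 5.56 with X-1 and 3.65, 4.10 and 3.49 in controls, in the same order. The X-3 minus X-1 difference was −0.83 ± 0.17 (adjusted p = 0.0204) for Cmpk2, −0.77 ± 0.18 (adjusted p = 0.029) for Rtp4 and −0.76 ± 0.15 (adjusted p = 0.0162) for Ifi204. It was −1.11 ± 0.26 (adjusted p = 0.0301) for Rsad2 and −0.93 ± 0.24 (adjusted p = 0.0427) for Oasl1. Oasl1 passed the filter on dim probes only through X-1, the group where it was highest. Its difference was −0.27 (adjusted p = 0.503) with normexp background, and it missed the threshold without the filter (adjusted p = 0.117).

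Each of these 6 calls was lost on leaving out at least 1 array. For Oas2 this happened on leaving out X-1 replicate 3 (adjusted p = 0.0533), and no other array ended its call. Rsad2 lost its call on leaving out X-3 replicate 2 or 3, X-1 replicate 1, 2 or 3, or control replicate 3 (adjusted p = 0.055 to 0.0964). Oasl1 did so on leaving out X-3 replicate 2 or 3, X-1 replicate 1, 2 or 3, or control replicate 2 (adjusted p = 0.0683 to 0.128). The call of Cmpk2 ended on leaving out X-3 replicate 2 or 3, or X-1 replicate 1, 2 or 3 (adjusted p = 0.0543 to 0.0716). For both Rtp4 and Ifi204 it ended on leaving out X-3 replicate 2 or 3, or X-1 replicate 2 or 3 (adjusted p = 0.0775 to 0.105 for Rtp4 and 0.0542 to 0.0679 for Ifi204). Without X-1 replicate 3 no member was called lower with X-3. Without X-3 replicate 1 there were 9 lower and 1 higher, where 10.1% of all genes were lower and 10.1% higher. With the replicate number as a block 8 members were lower, Oas1a and Ifi205 being added.

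Several members with wide differences between the compounds missed the threshold. The X-3 minus X-1 difference was −1.02 ± 0.30 (adjusted p = 0.0625) for Stat2, −0.96 ± 0.28 (adjusted p = 0.0618) for Oas1a, −1.17 ± 0.35 (adjusted p = 0.0667) for Ifi205 and −1.07 ± 0.42 (adjusted p = 0.139) for Oas3. Without X-3 replicate 1 the Stat2 difference was −0.66 (adjusted p = 0.0486). Tap1 had the highest estimate, 0.80 ± 0.24 (adjusted p = 0.0723), or 0.95 (adjusted p = 0.0345) without X-3 replicate 1. For Gbp2 the 95% confidence interval of X-3 minus X-1 was −0.20 to 0.47, and for Ifitm3 it was −0.40 to 0.17. Differences of more than 0.5 on the log2 scale between the compounds therefore lay outside the interval for both genes.

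**Figure D3:**
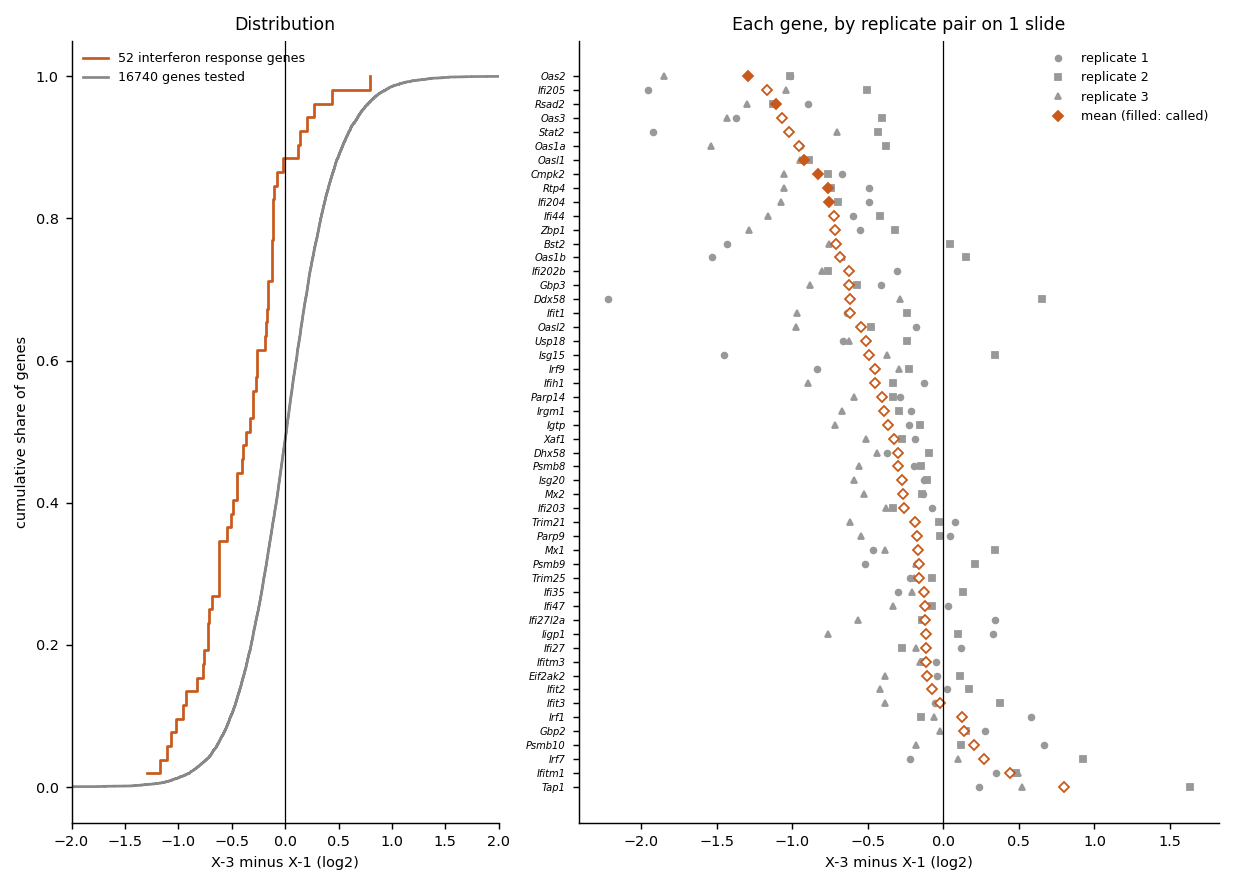
X-3 minus X-1 in log2 units, as the cumulative share of the 52 members and of all 16740 genes on the left, and for each member by slide on the right, with the left axis drawn from −2 to 2. The members' curve lies left of that of all genes, with 46 of 52 below 0, and the 6 filled diamonds mark the members that passed the test.

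Genes upstream of the members were read from lists of the same pathway. Ifnb1, which encodes interferon beta, stood at −4.15, −3.96 and −3.82 with X-3, −5.36, −6.30 and −6.16 with X-1 and −7.74, −6.63 and −7.76 in controls. It was above background on all 3 X-3 arrays and on 0 X-1 and 0 control arrays. Ifnb1 passed the filter on dim probes only through X-3, the group where it was highest, so its tests are not independent of that selection. It was at least 7.34-fold higher with X-3 than in controls (adjusted p = 3.91e-05 for the fitted difference). For that bound the control level was, on each array, the higher of the dimmest signal counted as above background and the probe's own signal. Against X-1 the fitted difference was 1.96, or 3.9-fold (adjusted p = 0.0106), which is not a lower limit. With background taken by normexp in place of the software's correction, the X-3 minus X-1 difference was 0.55 (adjusted p = 0.182). Between X-1 and control no fold is given, since neither group was above background. Ifng and Ifna4 were above background on 0 of 9 arrays, Ifne on 1 and Ifna5 on 5. Ifna2 was measured in all groups and differed by −0.19 ± 0.54 (adjusted p = 0.793) with X-3 and 0.10 ± 0.54 (adjusted p = 0.893) with X-1.

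Of the 7 measured ligand and receptor genes, 2 rose and 4 fell with X-3, and 2 rose and 3 fell with X-1. The X-1 count includes Ifnb1 although it was below background in both groups. Over all genes 28.9% rose and 26.4% fell with X-3, and 28.0% rose and 28.2% fell with X-1, so the rises were near those shares. Ifnar2 rose by 0.68 ± 0.14 (adjusted p = 0.00285) with X-3 and 0.74 ± 0.14 (adjusted p = 0.00159) with X-1. With median scaling neither call held (adjusted p = 0.0984 and 0.0626), and spike-in scaling gave −0.15 and −0.16. Its partner Ifnar1 fell by 0.41 ± 0.11 with X-3 (adjusted p = 0.0136), a call lost on leaving out control replicate 2 (adjusted p = 0.0558). Ifnar1 fell by 0.31 ± 0.11 with X-1 (adjusted p = 0.0441), a call lost on leaving out X-3 replicate 2 or 3, X-1 replicate 1, 2 or 3, or control replicate 2 or 3 (adjusted p = 0.0628 to 0.143) and with the replicate number as a block (adjusted p = 0.0523). Ifngr2 fell by 0.80 ± 0.19 with X-3 and 0.87 ± 0.19 with X-1, and Il10rb, a chain shared by the interferon lambda receptor, fell by 0.71 ± 0.16 and 0.88 ± 0.16. Ifngr1 fell by 0.76 ± 0.17 with X-3 (adjusted p = 0.00449) and differed by −0.19 ± 0.17 (adjusted p = 0.359) with X-1.

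Of 14 measured genes that relay the signal, 6 rose and 1 fell with X-3, and 7 rose and 1 fell with X-1. The shares over all genes were 28.9% and 26.4% with X-3 and 28.0% and 28.2% with X-1. Jak1, a kinase of several interferon receptors, rose by 1.43 ± 0.16 (adjusted p = 6.65e-05) with X-3 and 1.65 ± 0.16 (adjusted p = 2.31e-05) with X-1. Socs3, a feedback inhibitor of JAK kinases, rose by 2.41 ± 0.32 and 2.23 ± 0.32. Pias1, a SUMO ligase that inhibits STAT proteins, fell by 1.94 ± 0.15 with X-3 and 1.79 ± 0.15 with X-1 at its brighter probe, while its other probe gave 0.16 and −0.06.

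Of 15 measured genes of nucleic acid sensing, 5 rose and 5 fell with X-3, and 3 rose and 5 fell with X-1, near the shares over all genes of 28.9% and 26.4% with X-3 and 28.0% and 28.2% with X-1. Nod1, a sensor of bacterial cell wall pieces, fell by 1.43 ± 0.14 with X-3 and 1.55 ± 0.14 with X-1. Ticam1, the adaptor TRIF of Toll-like receptor 3, rose by 1.43 ± 0.11 with X-3 and 0.89 ± 0.11 with X-1. With spike-in scaling the X-1 difference of Ticam1 was 0.03 (adjusted p = 0.933).

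Of 13 measured genes of class I presentation outside the members, 6 rose and 1 fell with X-3, and 7 rose and 2 fell with X-1. Among all genes 28.9% rose and 26.4% fell with X-3, and 28.0% rose and 28.2% fell with X-1. H2-Q4 rose by 1.56 ± 0.15 with X-3 and 1.69 ± 0.15 with X-1, H2-T23 by 1.57 ± 0.22 and 1.66 ± 0.22, and H2-K1 by 0.92 ± 0.15 and 1.44 ± 0.15. These heavy chain genes are closely related in sequence. With spike-in scaling the X-3 difference of H2-K1 was 0.26 (adjusted p = 0.463).

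Among 45 further measured genes known to be induced by interferon, 32 rose and 3 fell with X-3, and 34 rose and 3 fell with X-1. Their medians were 0.89 and 1.12. The shares of all genes that rose and fell were 28.9% and 26.4% with X-3 and 28.0% and 28.2% with X-1. Cxcl9, a chemokine for T cells, stood at −0.03, 0.35 and −0.72 with X-3, −0.35, −0.17 and −0.07 with X-1 and −6.11, −5.56 and −6.45 in controls, and only 1 control array was above background. Cxcl9 rose by 5.90 ± 0.29 (adjusted p = 1.02e-06) with X-3 and 5.84 ± 0.29 (adjusted p = 7.29e-07) with X-1. Apol9a, an apolipoprotein L gene, rose by 4.28 ± 0.18 (adjusted p = 4.81e-07) with X-3 and 4.68 ± 0.18 (adjusted p = 2.74e-07) with X-1. Cxcl11, a chemokine for the same receptor as Cxcl9, rose by 3.1 ± 0.54 (adjusted p = 0.00115) and 4.05 ± 0.54 (adjusted p = 0.000202), again with 1 control array above background. The direct comparison of the compounds called 2 of the 45 higher and 2 lower with X-3, where 6.97% of all genes were higher and 3.57% lower.

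**Figure D4:**
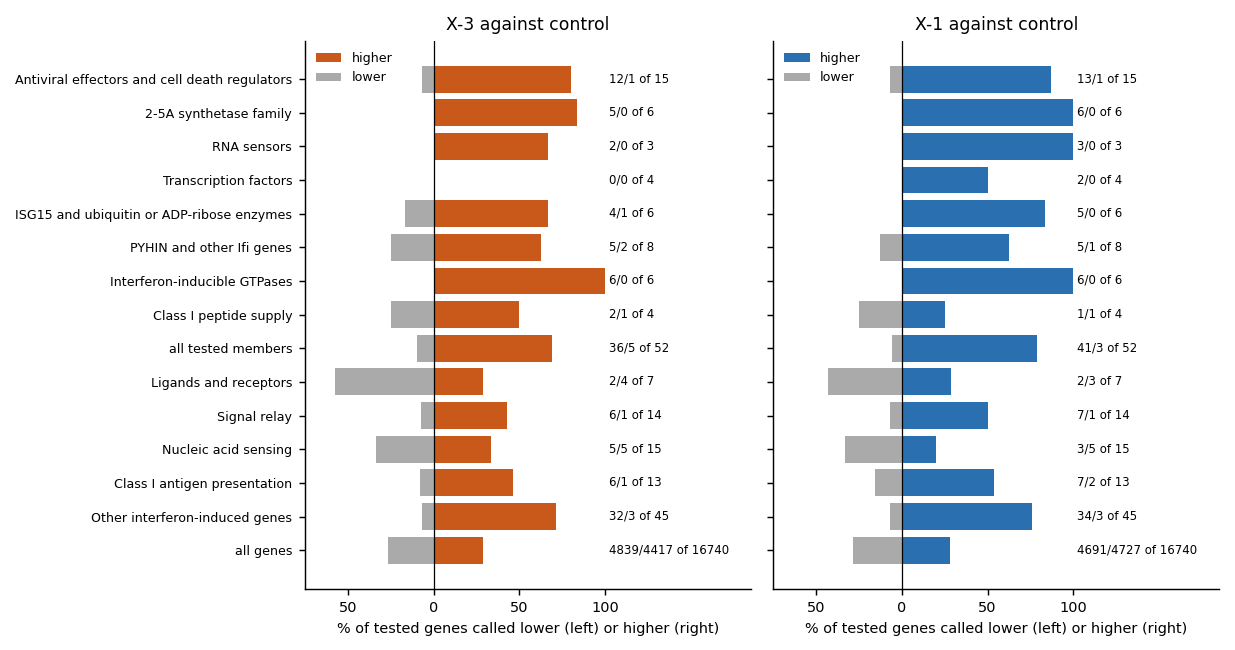
Percent of measured genes called higher (right of 0) or lower (left of 0) at an adjusted p under 0.05 in each role group, pathway list and over all genes, X-3 on the left and X-1 on the right, with the counts printed beside the bars. The GTPases reach 6 of 6 in both panels, and of all genes 28.9% rose and 26.4% fell with X-3, and 28.0% rose and 28.2% fell with X-1.

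**Figure D5:**
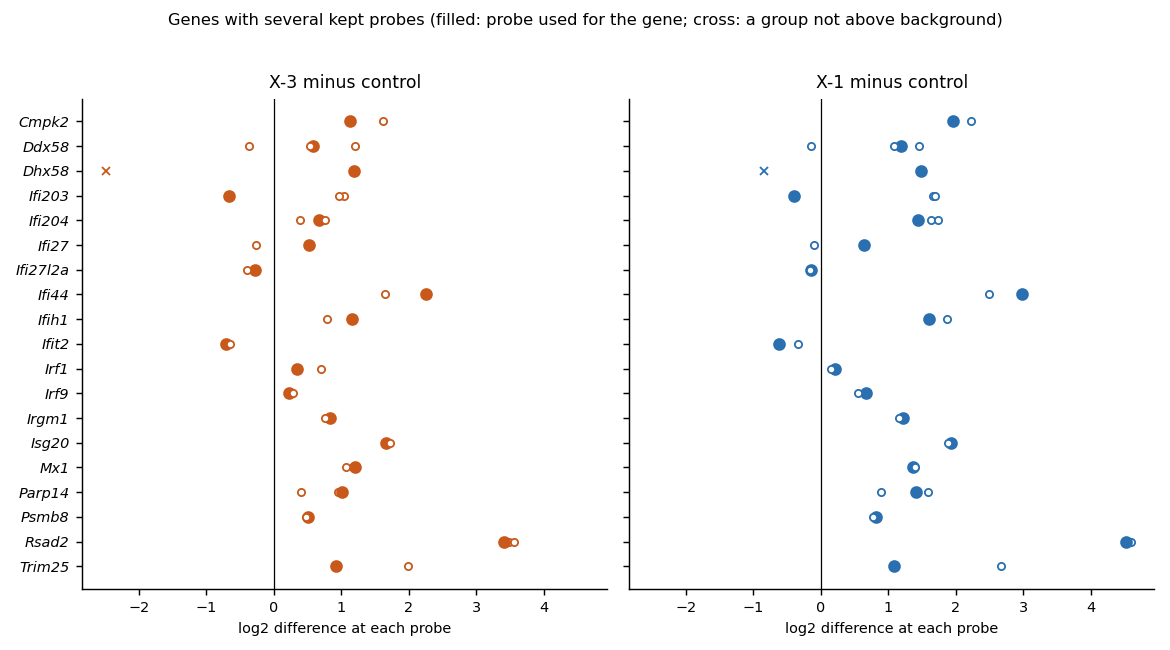
Log2 difference from control at every kept probe of the 19 members that had several, X-3 on the left and X-1 on the right. Filled points mark the probe used for the gene and crosses a probe with 1 group at background; the Rsad2 probes lie together while those of Ifi203, Dhx58, Ddx58 and Trim25 lie apart.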

How the data were processed

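RNA of 9 cultures was labelled with Cy3 and hybridised to 1-colour Agilent mouse arrays. The deposited intensity values are the scanner software's processed signals, background-subtracted and detrended within each array, with low values replaced by a surrogate, per the file headers. The headers name Feature Extraction versions that differ between slide 1 and the others, while the submitters' processing notes give version 9.1. The deposited score table holds values that behave as log2 intensity scaled to mean 0 and SD 1 per array, and the labels do not state how it was made. It was used as an alternative.

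Control spots and outlier flags were left out, spots of a probe were averaged, and log2 intensity minus the array's 75th percentile was taken. Probes had to be called well above background by the software on every array of at least 1 group (25295 probes), and the brightest kept probe stood for its gene. Limma 3.58.1 in R 4.3.3 fitted the 3 groups on all 9 arrays together, with Benjamini-Hochberg adjustment over 16740 genes and a threshold of 0.05. Gene names follow the array, updated by accession to RefSeq. The fit was tested on simulated data.

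The design text calls the experiments independent, and the labels do not name separate passages. Same-numbered arrays shared a slide. Their deviations from the group means correlated at 0.52, 0.32 and 0.27 between X-1 and control and 0.24, 0.11 and 0.23 between X-3 and control. Between X-3 and X-1 the deviations correlated at −0.04, −0.18 and 0.16. A shared slide and paired cultures cannot be told apart from these values.

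The members, lists, tests and named genes were chosen with earlier results of these data known. Full values were given for the pair of members per role group with the largest X-1 differences, the 4 transcription factors, every member called lower, those called between the compounds, the 3 largest per pathway list, Ifnb1 and the receptors, and some results are not reported here. A few others (Bst2, Ddx58, Isg15, Ifit1) were named for their spread after the values were seen. Alternatives were median, quantile and spike-in scaling, normexp background (offset 50), no filter on dim probes, the mean of kept probes, the replicate block, an intensity trend, the score table and each array left out.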

Additional observations from a re-analysis of the deposited data

How the results depend on the processing

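Relative to the reported 36 members higher and 5 lower with X-3, 41 and 3 with X-1, and 0 and 6 between X-3 and X-1, the counts moved as follows. Median scaling gave 32 higher and 5 lower with X-3, 38 and 5 with X-1, and 0 and 1 between X-3 and X-1. It moved the median of all genes to −0.15 with each compound, and the shares of all genes higher and lower became 18.4% and 29.1% with X-3 and 18.7% and 30.6% with X-1. Spike-in scaling, possible on replicates 2 and 3 only, gave 15 higher and 8 lower with X-3, 21 and 9 with X-1, and 1 and 2 between X-3 and X-1. On it 11% of all genes were higher and 50% lower with X-3, and 9.21% and 59.4% with X-1. The 75th percentile on replicates 2 and 3 alone was chosen after seeing the data. It gave 40 higher and 5 lower with X-3, 41 and 5 with X-1, and 2 and 8 between X-3 and X-1. The shares of all genes higher and lower were then 35.7% and 34.3% with X-3 and 35.6% and 33.3% with X-1. Between X-3 and X-1 they were 17.3% and 21%. Without the filter on dim probes 27617 genes were tested. The counts were then 36 higher and 4 lower with X-3, 38 and 3 with X-1, and 0 and 1 between X-3 and X-1. The mean of kept probes gave 34 higher and 3 lower with X-3, 40 and 2 with X-1, and 0 and 6 between X-3 and X-1.

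Spike-in scaling turned the sign of 10 members with X-3. Called without it were Ifitm1 (−0.027), Ifi204 (−0.17), Ifi27 (−0.22) and Psmb8 (−0.21), and called in neither were Bst2, Oasl1, Irf1, Irf7, Irf9 and Stat2 (−0.50 to −0.019). It turned 11 with X-1. These were Ifit1 (−0.43), Ifit3 (−0.069), Ifitm1 (−0.72), Irf1 (−0.60), Irf7 (−0.96), Irf9 (−0.25), Isg15 (−0.021), Ifi27 (−0.20), Tap1 (−0.63), Psmb8 (−0.051) and Psmb9 (−0.89). Ifnar2 turned with both (−0.15 with X-3, −0.16 with X-1). Between X-3 and X-1 it left 16 members above 0, against 6. The mean of probes turned Ifi203 (0.45 with X-3, 0.99 with X-1) and Dhx58 (−0.65 with X-3). Which scaling is closer to the RNA content of the cells was not tested.

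With the replicate number as a block the counts were 36 and 5 with X-3, 40 and 4 with X-1, and 0 and 8 between X-3 and X-1. In the last comparison the deviations of same-numbered arrays correlated at only −0.18 to 0.16. Beyond Ddx58, Trim21 and Ifnar1, described above, the block changed no other call against control among the members and the genes named here. Leaving out each array in turn gave 35 to 41 higher and 3 to 5 lower with X-3, 37 to 41 and 3 to 4 with X-1, and 0 to 1 and 0 to 9 between X-3 and X-1. Quantile normalisation, normexp, the intensity trend and the score table kept all 6 counts within 1.5 times. Normexp used the median spot signal, since replicates 2 and 3 carry no mean signal. Dim members such as Oas3, Oasl1 and Ifnb1 rest on signals near background.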

Other observations

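Oas1g and the interferon genes Ifng and Ifna4 were well above background on 0 of 9 arrays, and no value was compared for them. X-3 replicate 1 was more than 1 log2 unit below both other X-3 arrays for Bst2 (−1.18), Ddx58 (−1.16), Isg15 (−1.21) and Ifi205 (−1.09), while Irf1 was highest of all 9 arrays on it. Fabp4, the adipocyte marker with the largest change, fell by 2.49 ± 0.20 with X-3 and 2.84 ± 0.20 with X-1 (limma adjusted p = 1.08e-05 and 4e-06).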
